A study of Homo sapiens with 12 samples.

Results

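The JNK and p38 stress kinase cascade was followed as 57 genes, chosen by symbol from the signalling scheme and matched to the 58884 genes of the count table by their Ensembl identifiers. All 57 symbols had an entry. The genes fall into 8 tiers, from the GTPases at the top to the transcription factors at the end. These are 5 GTPases and PAK kinases, 7 kinases of the MAP4K tier, 15 of the MAP3K tier, 7 partners and scaffolds of the MAP3K enzymes, 4 kinases of the MAP2K tier, 7 of the MAPK tier, 7 effector kinases and 5 transcription factors.

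RNA was sequenced from U2932 and TMD8, established cell lines of diffuse large B-cell lymphoma (DLBCL) whose genotype is given as WT. Each line had been divided into separately kept cultures, which make the 2 biological replicates. They received 20 µg/mL of rituximab (R), of ofatumumab (OF) or of a human IgG1 isotype control for 4 h, which gives 6 conditions with 2 libraries each and 12 libraries in all. R and OF are both antibodies against CD20, a B-cell surface protein, and bind different epitopes. The isotype control shares their constant region and was the reference for each line, and R was also compared with OF directly. A replicate is a culture of the same line, so the error covers the spread between cultures and library preparations of that line and not a spread between patients.

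In this cascade a signal from a receptor or a stress passes through small GTPases and MAP4K kinases to MAP3K enzymes. A MAP3K phosphorylates a MAP2K, and the MAP2K phosphorylates JNK or p38 on a threonine and a tyrosine. MAP2K4 and MAP2K7 act on JNK, and MAP2K3 and MAP2K6 act on p38. The split is not strict, since MAP2K4 can act on p38 as well. JNK and p38 then phosphorylate further kinases and transcription factors such as JUN, ATF2 and MEF2. Most of this regulation is by phosphorylation, which RNA does not show, and in B cells the cascade runs downstream of the antigen receptor, CD40 and Toll-like receptors.

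The libraries held 15440226 to 27110612 counts on genes. Levels are given as CPM, counts scaled to a common library size after TMM normalization over all 12 libraries. Ribosomal protein genes took 4.44% to 4.75% of the counts in the U2932 isotype libraries and 6.03% to 6.56% in the U2932 libraries with R or OF. The 2 TMD8 libraries OF replicate 2 and isotype replicate 2 differed from the rest of their line, with 6.50% to 7.16% on ribosomal protein genes against 10.00% to 10.77% in the remaining 4, and 3.73% to 3.99% on mitochondrial genes against 5.70% to 6.23%. The share of these differences in the values of the cascade was not tested. The 6 B-cell markers summed to 1874 to 3001 CPM in U2932 and 2438 to 3645 CPM in TMD8. The markers of T and NK cells reached at most 0.195 CPM, those of myeloid cells at most 1.53 CPM and those of fibroblasts at most 5.75 CPM in any library.

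Most of the cascade was transcribed in both lines. Levels between genes were compared as CPM per kb of transcript, and under isotype the median member stood at 9.48 CPM per kb in U2932 and 10.2 in TMD8, against 4.40 and 4.46 for all genes tested. The GTPases were at the top of the order. In U2932 the highest means were those of CDC42 with 102 CPM per kb, RAC2 with 78.5, RAC1 with 67.2, the eIF4E kinase MKNK2 with 62.1 and the Hippo pathway kinase STK4 with 59.2. In TMD8 the order was RAC2, the haematopoietic GTPase, with 197, the haematopoietic kinase MAP4K1 with 147, RAC1 with 75.4, GADD45B with 65.2 and CDC42 with 65.1 CPM per kb. The order of the neighbours GADD45B and CDC42 was within the spread of their replicates, which before division by length was 74.0 to 105 CPM for GADD45B and 123 to 173 CPM for CDC42. At the low end stood MAP2K6 with 0.58, MAP3K6 with 0.103, MAPK10 with 0.0272 and MAP4K4 with 0.0116 CPM per kb in U2932, and MAPK10 with 0.356, RPS6KA5 with 0.264, MAPK13 with 0.177 and MAP3K6 with 0.106 in TMD8. In the MAPK tier MAPK14 and MAPK12 led in both lines, with 15.3 and 10.7 CPM per kb in U2932 and 15.5 and 10.4 in TMD8. MAPK9 followed with 5.29 and 8.45, MAPK8 with 3.81 and 2.37 and MAPK11 with 2.14 and 2.91 in U2932 and TMD8. MAP2K7 and MAP2K3 led the MAP2K tier, with 22.1 and 16.5 CPM per kb in U2932 and 20.0 and 12.6 in TMD8.

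**Figure D1:**
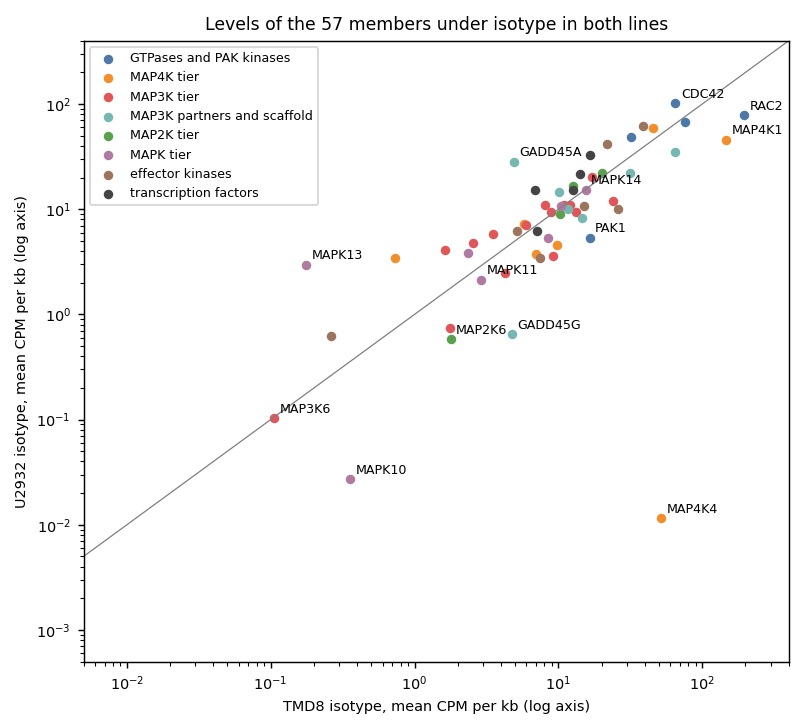
Mean CPM per kb of transcript of the 57 members in the isotype libraries of TMD8 (x axis) and U2932 (y axis), both on log axes, with each point a gene (mean of 2 libraries) coloured by tier and the diagonal marking equal levels. Most genes lie near the diagonal between 1 and 100, and MAP4K4, with 0.0116 in U2932 and 51.7 in TMD8, lies farthest from it.

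Between the lines under isotype, 22 members were higher and 22 lower in U2932 than in TMD8 at an adjusted p-value under 0.10 (edgeR quasi-likelihood test, Benjamini-Hochberg over all genes), out of 57 tested. That is 38.6% of the members in each direction, against 33.2% of all 16187 genes higher and 33.7% lower. MAP4K4, which acts on the JNK branch, was the extreme case. Its counts in the U2932 libraries were 2 and 2 under isotype, 2 and 1 with R, and 1 and 2 with OF. In TMD8 they were 6137 and 12392 under isotype, 5754 and 5869 with R, and 5340 and 6316 with OF. The isotype libraries of TMD8 held 4581 times the normalized MAP4K4 of U2932, with an exact 95% counting interval of 1789 to 16816 that covers counting error only. The gene lies on chromosome 2 from 101696850 to 101894689 on the plus strand (GRCh38, GENCODE 29).

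The p38 and JNK genes of restricted expression also divided the lines. MAPK13 (p38 delta) had 277 to 423 counts in the 6 U2932 libraries and 0 to 36 in the 6 TMD8 libraries. MAPK10, the JNK3 gene best known from neurons, showed the reverse with 1 to 7 counts in U2932 and 50 to 99 in TMD8. In both cases the lines did not overlap. MAPK10 shares 4.42% of its exon bases with exons of ARHGAP24 on the opposite strand. The mean count was 37.1 for MAPK10 and 1282 for ARHGAP24. Whether counting used the strand is not given, and the share of ARHGAP24 reads in the MAPK10 counts was not tested. GADD45A, a stress-inducible activator of MAP3K4, stood at 41.4 and 43.6 CPM in U2932 isotype libraries and at 7.14 and 7.60 CPM in those of TMD8, a log2 difference of 2.52 ± 0.14 (SE; adjusted p = 6.21e-08, edgeR). Its relative GADD45G was lower in U2932, with a log2 difference of −2.85 ± 0.40 (adjusted p = 7.95e-05, edgeR). Other members lower in U2932 were MAP4K1 (log2 difference −1.68), MAP2K6 (−1.62), PAK1 (−1.62), MAPKAPK3 (−1.37) and RAC2 (−1.32), and members higher there included MAP4K3 (2.23), MAP3K5 or ASK1 (1.31), RPS6KA5 or MSK1 (1.24) and ATF2 (1.13). The ubiquitous p38 alpha gene MAPK14 did not separate the lines, with 67.6 and 64.5 CPM in U2932 and 64.2 and 69.9 CPM in TMD8 (adjusted p = 0.879, edgeR).

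In U2932 both antibodies moved genes in every tier of the cascade. With R against isotype 12 members rose and 8 fell out of 55 tested, and with OF 17 rose and 9 fell. Of all 14635 genes tested in this line, 16.8% rose and 17.4% fell with R, and 18.7% rose and 17.8% fell with OF. The members that rose made up 21.8% of those tested with R and 30.9% with OF, and those that fell 14.5% and 16.4%. No difference between these shares and those of all genes was tested, and the OF count ranged from 14 to 30 members with 1 library left out. The median log2 fold change of the members was 0.07 with R and 0.09 with OF, against −0.02 and 0.01 over all genes. R and OF are compared with the same 2 isotype libraries, so their results are not independent of each other. Only MAP4K4 and MAPK10 were too low to be tested. The changes were small, and 4 members with R and 6 with OF reached 1.5-fold.

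**Figure D2:**
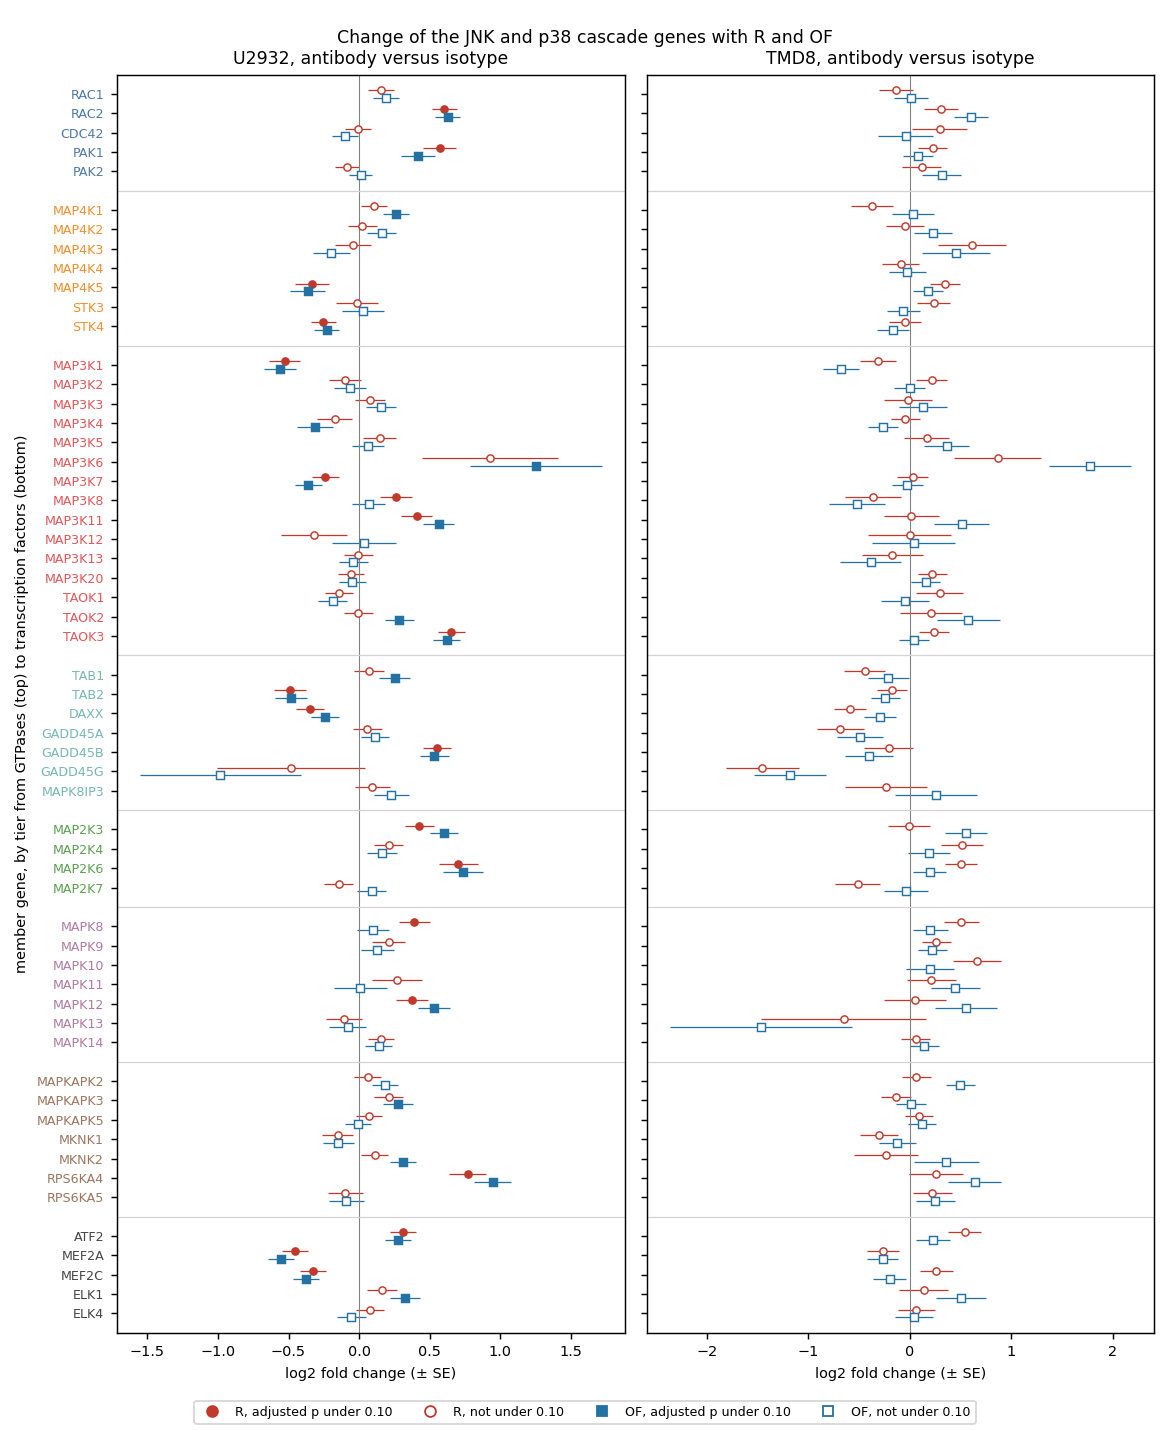
Log2 fold change (x axis, ± SE) of each tested member against isotype in U2932 (left) and TMD8 (right), with R as circles, OF as squares, filled where the adjusted p-value was under 0.10, and members ordered by tier from the GTPases at the top (coloured names) to the transcription factors. Filled points, 20 with R and 26 with OF, occur in U2932 and none in TMD8, in the fits without a term for the replicate number.

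At the top of the cascade, RAC2 stood at 122 and 111 CPM under isotype, at 171 and 183 CPM with R and at 182 and 176 CPM with OF in U2932. All 4 treated libraries lay above both isotype libraries. The log2 fold change was 0.60 ± 0.09 with R (adjusted p = 1.36e-05, edgeR) and 0.63 ± 0.09 with OF (adjusted p = 8.77e-06, edgeR). PAK1, a kinase activated by RAC and CDC42, rose from 18.2 and 21.9 CPM to 27.6 and 32.0 CPM with R and to 26.0 and 27.3 CPM with OF. Its log2 fold changes were 0.57 ± 0.12 and 0.42 ± 0.12 (adjusted p = 0.00059 and 0.00914, edgeR). The other 3 members of this tier, RAC1, CDC42 and PAK2, did not pass with either antibody.

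Of the MAP4K tier, MAP4K5 and STK4 fell with both antibodies, by 0.34 and 0.25 on the log2 scale with R and by 0.37 and 0.23 with OF (adjusted p between 0.0238 and 0.0445, edgeR). MAP4K1 rose with OF, at a log2 fold change of 0.26 ± 0.09 (adjusted p = 0.0382, edgeR), and with R stood at 0.11 ± 0.09 (adjusted p = 0.446).

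The MAP3K tier changed in both directions. TAOK3, a kinase of the TAO family that acts on p38, stood at 49.2 and 55.4 CPM under isotype, at 81.1 and 83.1 CPM with R and at 78.9 and 81.2 CPM with OF. The groups did not overlap, and the log2 fold changes were 0.65 ± 0.10 and 0.62 ± 0.10 (adjusted p = 1.16e-05 and 2.35e-05, edgeR). MAP3K11 (MLK3), which RAC and CDC42 activate, rose by a log2 fold change of 0.41 ± 0.11 with R and 0.56 ± 0.11 with OF (adjusted p = 0.00663 and 0.000353, edgeR). MAP3K1 (MEKK1), a kinase of the JNK branch that also carries a ubiquitin ligase domain, fell from 58.2 and 74.8 CPM to 46.5 and 45.7 CPM with R and to 42.0 and 47.8 CPM with OF. That is a log2 fold change of −0.53 ± 0.11 and −0.56 ± 0.11 (adjusted p = 0.000739 and 0.000429, edgeR). The TAK1 gene MAP3K7 fell by 0.24 and 0.36 on the log2 scale with R and OF (adjusted p = 0.0574 and 0.00473, edgeR).

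Other members of this tier passed with a single antibody. With OF, MAP3K6 (ASK2) had a log2 fold change of 1.25 ± 0.47, TAOK2 of 0.28 ± 0.10 and MAP3K4 of −0.31 ± 0.12 (adjusted p = 0.0439, 0.0399 and 0.0606, edgeR). The MAP3K6 value rests on few reads, with 10 and 10 counts under isotype and 14 and 23 with OF. With R, MAP3K8 (TPL2) had a log2 fold change of 0.26 ± 0.11 (adjusted p = 0.0923, edgeR). The direct comparison of R with OF did not pass for any of these genes.

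Among the partners of the MAP3K enzymes, GADD45B rose with both antibodies while TAB2 and DAXX fell. GADD45B, which binds MAP3K4, went from 51.8 and 44.2 CPM to 69.2 and 71.5 CPM with R and 71.0 and 67.5 CPM with OF, with log2 fold changes of 0.55 ± 0.10 and 0.53 ± 0.10 (adjusted p = 0.000159 and 0.000239, edgeR). TAB2, the adaptor that couples TAK1 to ubiquitin chains, went from 40.6 and 50.6 CPM to 31.9 and 33.1 CPM with R and 34.1 and 31.0 CPM with OF, a log2 fold change of −0.49 ± 0.11 and −0.48 ± 0.11 (adjusted p = 0.00164 and 0.00187, edgeR). DAXX, a nuclear protein that can activate ASK1, fell by 0.35 and 0.24 on the log2 scale (adjusted p = 0.0105 and 0.0687, edgeR). TAB1, an activating subunit of TAK1, rose with OF by a log2 fold change of 0.25 ± 0.11 (adjusted p = 0.0784, edgeR).

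In the MAP2K tier MAP2K3 and MAP2K6 rose, while the calls of MAP2K4 and MAP2K7 depended on the GC content correction. MAP2K3 stood at 39.4 and 36.4 CPM under isotype, at 51.8 and 50.2 CPM with R and at 59.5 and 55.2 CPM with OF, and its log2 fold changes were 0.43 ± 0.10 and 0.60 ± 0.10 (adjusted p = 0.00214 and 5.99e-05, edgeR). MAP2K6 stood at 7.61 and 7.93 CPM under isotype, at 13.1 and 12.2 CPM with R and at 13.1 and 12.7 CPM with OF, and its log2 fold changes were 0.70 ± 0.14 and 0.73 ± 0.14 (adjusted p = 0.000396 and 0.000259, edgeR). All treated libraries lay above the isotype libraries for both genes. MAP2K4 had log2 fold changes of 0.21 ± 0.10 and 0.16 ± 0.10 and MAP2K7 of −0.14 ± 0.10 and 0.09 ± 0.10 (adjusted p between 0.144 and 0.555, edgeR). MAP2K4 stood at 32.3 and 37.0 CPM under isotype, at 39.7 and 40.4 CPM with R and at 38.5 and 38.8 CPM with OF, and its groups did not overlap. With the GC content correction and the replicate block MAP2K4 passed as higher with both antibodies, at 0.28 and 0.27 (adjusted p = 0.0109 and 0.0135), and MAP2K7 as lower with R, at −0.21 (adjusted p = 0.0317). MAP2K7 stood at 84.1 and 67.8 CPM under isotype, at 70.6 and 67.0 CPM with R and at 81.8 and 79.3 CPM with OF. Whether MAP2K3 and MAP2K6 differ from MAP2K4 and MAP2K7 in their change was not tested.

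In the MAPK tier MAPK12 (p38 gamma) rose with both antibodies, from 22.1 and 19.0 CPM to 27.2 and 26.1 CPM with R and to 30.1 and 28.97 CPM with OF, with log2 fold changes of 0.37 ± 0.11 and 0.53 ± 0.11 (adjusted p = 0.0149 and 0.000855, edgeR). MAPK8 (JNK1) stood at 21.4 and 24.7 CPM under isotype, at 29.8 and 30.8 CPM with R and at 24.9 and 24.3 CPM with OF. It rose with R by a log2 fold change of 0.39 ± 0.11 (adjusted p = 0.00847, edgeR), and its OF libraries overlapped those of the isotype at 0.10 ± 0.11 (adjusted p = 0.551, and 0.0436 at 0.24 with the GC content correction and the block). MAPK9, MAPK11, MAPK13 and MAPK14 did not pass, with log2 fold changes of −0.11 to 0.27 with R and −0.08 to 0.14 with OF. Of these the p38 alpha gene MAPK14 stood at 67.6 and 64.5 CPM under isotype, at 73.3 and 73.6 CPM with R and at 70.9 and 73.9 CPM with OF.

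Among the effector kinases RPS6KA4 (MSK2), which p38 and ERK activate and which phosphorylates histone H3 and CREB, had the largest fold of the members that passed with both antibodies. It stood at 11.95 and 9.47 CPM under isotype, at 18.2 and 18.3 CPM with R and at 20.6 and 20.6 CPM with OF. The log2 fold changes were 0.77 ± 0.13 and 0.95 ± 0.13 (adjusted p = 7.58e-05 and 5.35e-06, edgeR). Its paralog RPS6KA5 (MSK1) stood at −0.10 ± 0.12 and −0.09 ± 0.12 (adjusted p = 0.609 and 0.629). With OF, MKNK2 and the MAPK-activated kinase MAPKAPK3 also passed, at log2 fold changes of 0.31 ± 0.09 and 0.27 ± 0.10 (adjusted p = 0.0131 and 0.049, edgeR).

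At the end of the cascade both MEF2 members fell and ATF2 rose. MEF2A stood at 123 and 131 CPM under isotype, at 90.3 and 94.5 CPM with R and at 83.3 and 88.8 CPM with OF, a log2 fold change of −0.45 ± 0.09 and −0.55 ± 0.09 (adjusted p = 0.000423 and 5.13e-05, edgeR). MEF2C, the p38 target needed for B-cell proliferation after antigen receptor signals, fell by 0.33 and 0.37 on the log2 scale (adjusted p = 0.00879 and 0.00293, edgeR). ATF2, a substrate of both JNK and p38, rose by log2 fold changes of 0.31 ± 0.09 and 0.27 ± 0.09 (adjusted p = 0.0138 and 0.0279, edgeR). ELK1 rose with OF at 0.32 ± 0.11 (adjusted p = 0.024, edgeR), and ELK4 did not pass.

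**Figure D3:**
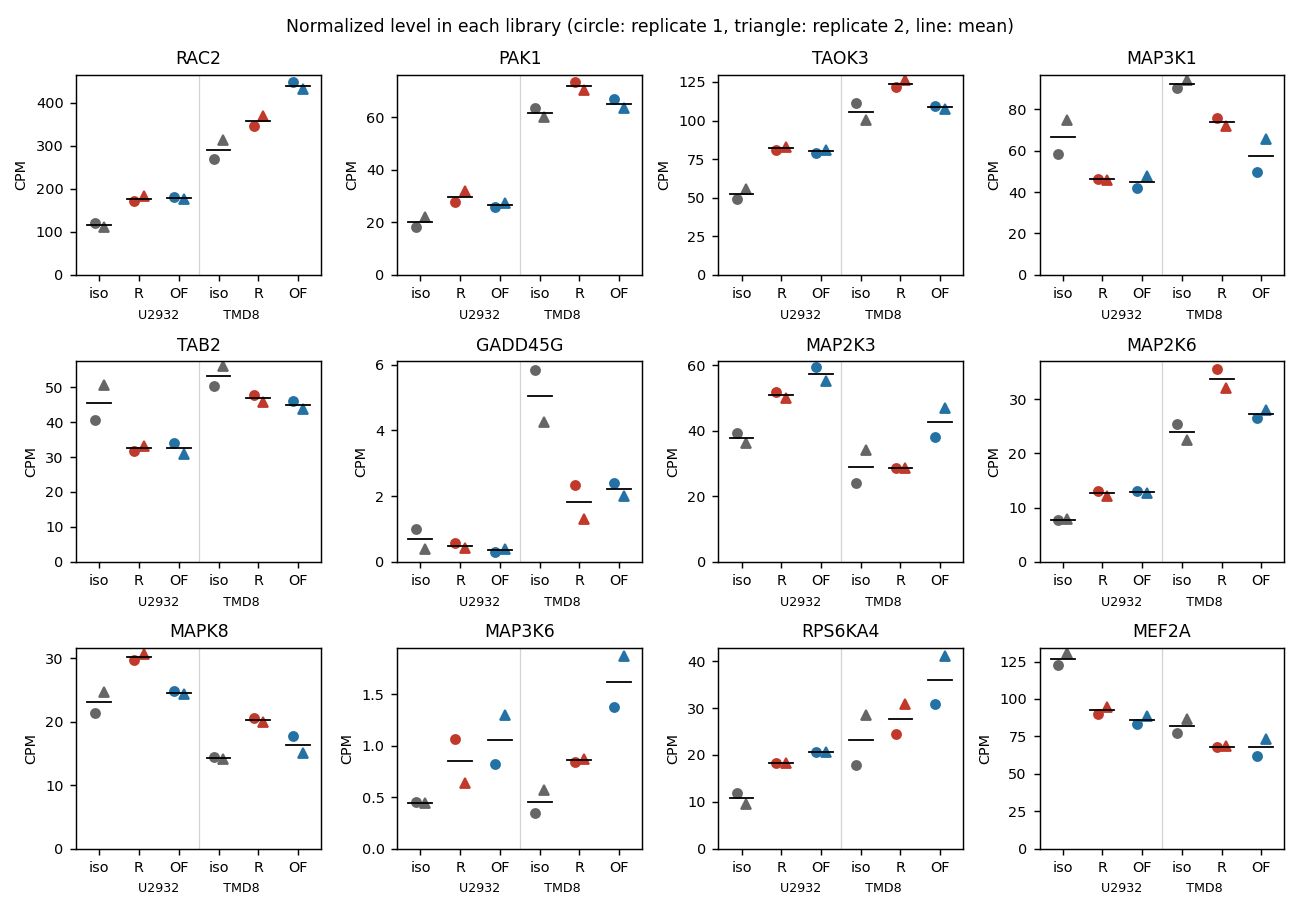
CPM (y axis, from 0) of 12 members in each library of U2932 (left of each panel) and TMD8 (right), with isotype in grey, R in red and OF in blue, replicate 1 as a circle, replicate 2 as a triangle and a line at the mean. In U2932 the treated libraries of RAC2, TAOK3, MAP2K3, MAP2K6 and RPS6KA4 lie above the isotype libraries and those of MAP3K1, TAB2 and MEF2A below them. In TMD8 the isotype and OF replicates of RPS6KA4 and MAP2K3 lie farther apart than those of U2932.

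In U2932 RAC2, TAOK3, MAP2K6 and RPS6KA4 (higher) and MAP3K1, TAB2 and MEF2A (lower) passed with both antibodies under all 16 alternatives of normalization, filter, model and left-out library, and so did PAK1 with R and MAP2K3 with OF. Calls near the limit did not. With a correction for GC content and the replicate number as a block, the OF calls of MAP4K1, TAOK2, TAB1, MAPKAPK3, MKNK2 and MAP4K5 and the R call of MAP3K7 were lost. With the block alone RAC1 and MAPK8IP3 also passed as higher with OF (adjusted p = 0.082 and 0.0612). Leaving out R replicate 1 ended the R calls of MAP4K5, MAP3K7, MAP3K8, MAP3K11 and MAPK12, and leaving out R replicate 2 those of STK4, MAP3K7, MAP3K8 and ATF2. Without OF replicate 1 the OF calls of MAP4K1, MAP4K5, STK4, MAP3K4, MAP3K7, TAOK2, TAB1, DAXX, MAPKAPK3, ATF2, MEF2C and ELK1 were lost, and without OF replicate 2 those of PAK1, MAP4K1, STK4, MAP3K4, MAP3K6, TAOK2, TAB1, DAXX, MAPKAPK3, MKNK2 and ATF2. Leaving out isotype replicate 2 ended the OF calls of MAP4K1, STK4, MAP3K4, MAP3K6, TAOK2, TAB1, MAPKAPK3, MKNK2 and ELK1 and the R calls of STK4 and MAP3K7, and leaving out isotype replicate 1 ended those of MAP3K6 and DAXX with OF and of MAP3K8 with R. When all 12 libraries shared an estimate of the spread, 8 members passed with each antibody. Because RNA was taken from whole cultures, a lower level in each cell and fewer cells with the transcript cannot be told apart. MEF2A shares 12.8% of its exon bases with exons of LYSMD4 on the opposite strand. Whether counting used the strand is not given in the sources used here.

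The promoters were searched for the letters of sites bound by the factors at the end of the cascade, the AP-1 site TGACTCA, read as TGAGTCA on the other strand, of JUN and FOS and the cyclic AMP response element TGACGTCA of ATF2, CREB and JUN, on both strands. RefSeq (GRCh38.p14) had 72 windows of 300 bases, from 250 before to 50 after a start, for 49 of the 57 members. An AP-1 match was in 5 windows of 5 members (6.94%), against 4.95% of all 35116 windows, and the response element in 4 windows of 4 members (5.56%), against 1.85%. The members with the response element were CDC42, MAP3K13, MAPK10 and MAPK8IP3, of which MAPK10 was not tested in U2932 and the others did not pass there. Of the 55 members tested in U2932, 19 passed as higher and 9 as lower with at least 1 antibody. Of all genes 16.8% rose and 17.4% fell there with R, and 18.7% and 17.8% with OF. Those with an AP-1 match were MAPK10 and RPS6KA4, MAP2K3, MAP3K8 and MEF2C, of which the last 4 passed there with at least 1 antibody. For these 4 the 120 bases before the start are shown, 5′ to 3′ on the strand of the gene, with the AP-1 letters in capitals:
RPS6KA4, chr11:64359042-64359161, plus strand: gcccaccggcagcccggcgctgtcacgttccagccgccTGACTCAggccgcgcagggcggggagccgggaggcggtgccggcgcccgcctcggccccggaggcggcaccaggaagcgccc
MAP2K3, chr17:21284591-21284710, plus strand: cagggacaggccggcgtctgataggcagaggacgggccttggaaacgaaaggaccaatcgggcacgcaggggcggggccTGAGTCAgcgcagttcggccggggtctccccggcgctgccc
MAP3K8, chr10:30434064-30434183, plus strand: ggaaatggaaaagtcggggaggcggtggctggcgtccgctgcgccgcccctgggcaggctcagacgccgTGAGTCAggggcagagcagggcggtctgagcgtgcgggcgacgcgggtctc
MEF2C, chr5:88785512-88785631, minus strand: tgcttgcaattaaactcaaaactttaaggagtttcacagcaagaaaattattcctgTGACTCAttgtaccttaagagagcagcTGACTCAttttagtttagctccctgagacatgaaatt
The match began 82 bases before the start in RPS6KA4, 41 in MAP2K3 and 51 in MAP3K8. The MEF2C window, 1 of the 7 of that gene, held 2 matches at 64 and 37 bases. RPS6KA4, MAP2K3 and MAP3K8 rose with R and MEF2C fell, so the match went with both directions. The MAP3K8 call was lost under 11 of 16 alternatives. A link between a match and a call was not tested. A match is a run of letters and not a measured site.

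In TMD8 no member passed with R or with OF against isotype in the fit without the replicate block. Of all 14227 genes, 0.401% rose and 0.246% fell with R, and 0.471% rose and 0.344% fell with OF. At an unadjusted p-value under 0.05 there were 8 members with R (14.04%, against 15.9% of all genes) and 7 with OF (12.3% against 14.1%). DESeq2 called 2 members with each antibody, and the share of all genes that it called is not given here. The median SE of a member's log2 fold change was 0.19 in TMD8 and 0.10 in U2932. The replicate number marks the culture, and the deviations of OF and isotype from their means followed each other more closely than either followed R. Culture, RNA quality and library preparation cannot be told apart here. With the replicate number as a block, 4 members passed as higher and 5 as lower with R (all genes, 8.99% and 8.73%), and 9 as higher and 3 as lower with OF (7.45% and 6.87%). The block assumes a shift between cultures that R, OF and isotype share. The deviations correlated at 0.69 between OF and isotype, and R correlated with OF at 0.22 and with isotype at 0.23. How far the assumption holds for the R calls was not tested.

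The smallest adjusted p-values with R were those of GADD45G and DAXX. GADD45G, an activator of MAP3K4, stood at 5.83 and 4.26 CPM under isotype, at 2.34 and 1.31 CPM with R and at 2.40 and 2.00 CPM with OF in TMD8. Both antibodies lay below isotype without overlap, at log2 fold changes of −1.45 ± 0.36 and −1.18 ± 0.36 (adjusted p = 0.148 and 0.211, edgeR). With the replicate block these were −1.47 ± 0.26 and −1.18 ± 0.26 (adjusted p = 0.0135 and 0.0287). DAXX and GADD45A had log2 fold changes with R of −0.59 ± 0.16 and −0.68 ± 0.23 (adjusted p = 0.162 and 0.232, and 0.0294 and 0.0741 with the block). All 7 partners and scaffolds were below isotype with R, from −0.18 for TAB2 to −1.45 for GADD45G. The share of all genes below isotype is not given here. Without OF replicate 2 and isotype replicate 2, which leaves 1 isotype library, the direction was not uniform. The sign of MAPK8IP3 (JIP3), a JNK scaffold, turned from −0.24 to 0.40, and TAB1 and TAB2 stood at −0.18 and −0.11. DAXX and the GADD45 genes stayed below isotype there, from −0.45 for GADD45B to −1.69 for GADD45G.

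Members above isotype with R in the blocked fit were in the MAP2K and MAPK tiers and among the factors. MAP2K6 stood at 25.4 and 22.5 CPM under isotype and at 35.6 and 32.0 CPM with R, a log2 fold change of 0.51 ± 0.16 (adjusted p = 0.210, and 0.0506 with the block, edgeR). MAPK8 stood at 14.5 and 14.1 CPM under isotype and at 20.6 and 20.0 CPM with R, at 0.51 ± 0.17 (adjusted p = 0.229, and 0.0611 with the block). ATF2 and MAP2K4 had log2 fold changes of 0.54 ± 0.16 and 0.51 ± 0.21 (adjusted p = 0.196 and 0.297, and 0.0383 and 0.0399 with the block). MAP2K7 and TAB1 passed as lower in the blocked fit, at −0.49 ± 0.16 and −0.43 ± 0.15 (adjusted p = 0.0819 and 0.0954). Without OF replicate 2 and isotype replicate 2, which leaves 1 isotype library, MAP2K7 and TAB1 stood nearer to isotype, at −0.26 and −0.18. In that fit MAP2K4 stood at 0.30, MAP2K6 at 0.40, MAPK8 at 0.47 and ATF2 at 0.52.

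With OF the blocked fit called RPS6KA4, RAC2, MAP3K1 and MAP3K6 with the smallest adjusted p-values beside GADD45G. RPS6KA4 stood at 17.9 and 28.5 CPM under isotype and at 31.0 and 41.2 CPM with OF in TMD8, where OF lay above isotype in each replicate and both groups had their higher value in replicate 2. Its log2 fold change was 0.64 ± 0.26 (adjusted p = 0.345, edgeR) and 0.66 ± 0.14 with the block (adjusted p = 0.0276). RAC2 stood at 270 and 313 CPM under isotype and at 449 and 432 CPM with OF, at 0.60 ± 0.17 (adjusted p = 0.188, and 0.0352 with the block). MAP3K1 stood at 90.3 and 94.2 CPM under isotype and at 49.5 and 65.6 CPM with OF, at −0.67 ± 0.18 (adjusted p = 0.1698, and 0.0281 with the block). MAP3K6 had a log2 fold change of 1.78 ± 0.40 from 6 and 16 counts to 20 and 29 (adjusted p = 0.143, and 0.0311 with the block). MAPKAPK2 or MK2, the main p38 effector kinase, MAP2K3, MAPK12, MAP3K11, ELK1 and TAOK2 also passed as higher with the block, and GADD45G and MAP3K8 as lower (adjusted p between 0.0287 and 0.0761).

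The number of members that passed in TMD8 differed when both libraries with the lower ribosomal protein share were left out, while leaving out either alone gave 0 or 1. Without OF replicate 2 and isotype replicate 2, a choice made after the values were seen, 18 members passed as higher and 8 as lower with R, against 15.9% and 14.4% of all genes, and 12 as higher and 6 as lower with OF, against 12.5% and 10.9%. In that fit OF and isotype have 1 library each, and they are assumed to vary like the R pair, the only one left. Most members that passed with R in that fit, and all that passed with OF, had the same sign with all 6 libraries. Those 6 include every library of the reduced fit, so the shared signs are no independent check of it. RAC2 (0.40 with R, 0.73 with OF), RPS6KA4 (0.62 and 0.78), TAOK2 (0.69 and 0.75), GADD45G (−1.69 and −1.28) and MAP3K1 (−0.30 and −0.88) were among those that passed with both antibodies.

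Between R and OF no member passed in either line. In U2932, where the limit was an adjusted p-value of 0.30, the smallest was 0.910 (edgeR), and 1 gene of the table, 0.00683%, was called. Members under an unadjusted 0.05 were TAOK2 with a log2 difference of R minus OF of −0.29 ± 0.10, MAPK8 with 0.29 ± 0.11, MAP2K7 with −0.23 ± 0.10 and MKNK2 with −0.20 ± 0.09. In TMD8 0% of genes were called and the smallest adjusted p-value of a member was 0.733. Members there under an unadjusted 0.05 were MAPKAPK2 with −0.43 ± 0.14, MEF2C with 0.46 ± 0.16 and MAP2K3 with −0.57 ± 0.21. The shares of all genes under an unadjusted 0.05 are not given for R against OF within a line, so these members are no result about the cascade. MAPKAPK2 stood at 67.5 and 67.1 CPM with R and at 87.7 and 93.8 CPM with OF in TMD8. MAP2K3 stood at 28.7 and 28.8 CPM with R and at 38.2 and 47.0 CPM with OF. DESeq2 called no member in either line. Without OF replicate 2 and isotype replicate 2, 4 members passed as higher with R and 1 as lower in TMD8 (2.14% and 1.86% of all genes), which were MAP3K1 (0.58), TAOK1 (0.58), MEF2C (0.37), MAPK13, with 0 counts in the only OF library left, and MAPKAPK2 (−0.38).

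Fitted over both lines as a common difference, R minus OF again gave no member and 0% of genes, with a smallest adjusted p-value of 0.286 for the members (edgeR). An unadjusted p-value under 0.05 was found for 16 members, 28.1%, against 14.99% of all genes. With the replicate block 4 members passed as lower with R than with OF, against 3.97% of all genes. These were MKNK2 with a log2 difference of −0.39 ± 0.10, MAP2K3 with −0.36 ± 0.10, MAP2K7 with −0.35 ± 0.10 and TAOK2 with −0.32 ± 0.09 (adjusted p = 0.0676, 0.0773, 0.0773 and 0.0909, edgeR). Without TMD8 OF replicate 1, 9 members passed in the fit without the block, and without TMD8 OF replicate 2, 2 members did.

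The sign of R minus OF went with the GC content of the transcripts, which ranged over the members from 35.4% to 66.6%. In TMD8, 23 of the 25 members with a GC content of at least 50% had a negative sign and 25 of the 32 below 50% a positive one. The rank correlation of the log2 difference with GC content was −0.78 over 57 members, and −0.55 over all 14207 genes with a GC content. The corresponding values were −0.53 over 55 members in U2932 and −0.76 over 57 members for both lines. These points come from the same libraries and are no replicates, and the correlations are a description. The 4 members that passed with the block had a GC content of 58.8% (MAP2K3), 62.0% (MKNK2), 62.5% (TAOK2) and 62.9% (MAP2K7). A correction that removes each library's trend on GC content lowers such a correlation by design, whatever the source of the trend. It also shrinks the differences of members rich in GC. The source of the trend was not tested. After each library's trend on GC content was removed, the correlation in TMD8 with the block was −0.16, and the median size of a member's difference went from 0.23 to 0.13. In that fit the number under an unadjusted 0.05 was 6 of 57 for both lines, 10.53% against 11.3% of all genes, and no member passed. The difference of MAP2K3 over both lines went from −0.36 to −0.19, that of MKNK2 from −0.39 to −0.17, that of MAP2K7 from −0.35 to −0.12 and that of TAOK2 from −0.32 to −0.09.

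**Figure D4:**
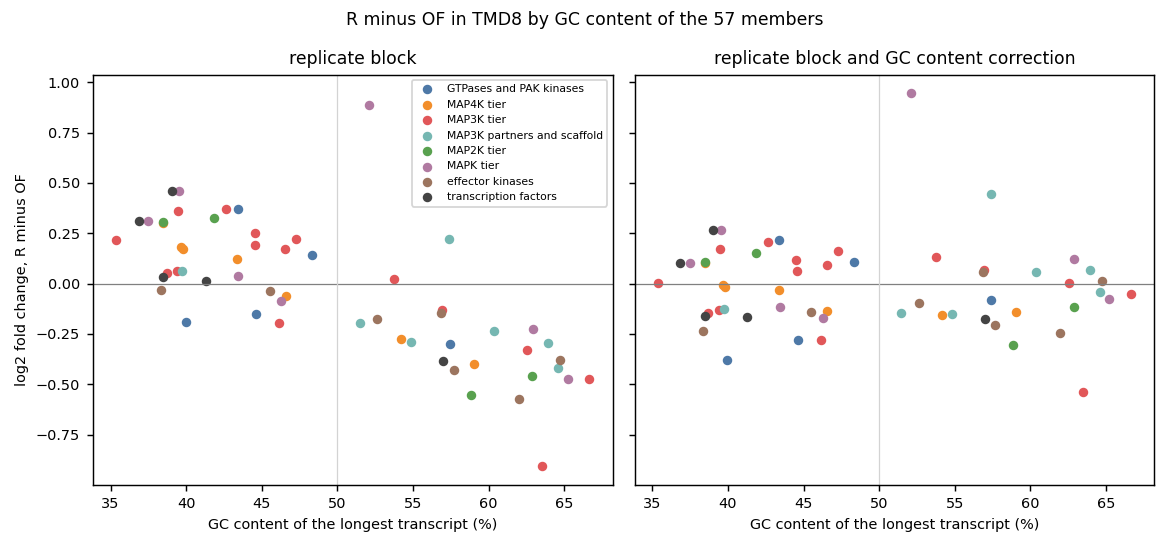
Log2 fold change of R minus OF in TMD8 (y axis) against the GC content of the longest transcript (x axis, percent) for the 57 members coloured by tier, in the fit with the replicate block (left) and with the GC content correction added (right), where the vertical line marks 50%. On the left most members above 50% lie below 0 and most below 50% lie above it, and on the right the rank correlation is −0.16.

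Whether the response to an antibody differed between the lines was tested as an interaction in all 12 libraries. No member passed, with a smallest adjusted p-value of 0.176 for R and 0.287 for OF (edgeR), against 0.321% and 0.105% of all 16187 genes. DESeq2 called 3 members for R and 2 for OF. The share of all genes that it called is not given here, so these counts are no result about the cascade. With the replicate block 5 members passed for R and 2 for OF, against 6.04% and 2.23% of all genes. For R these were MAP4K5 with a log2 difference of U2932 minus TMD8 of −0.68 ± 0.16, GADD45A with 0.75 ± 0.19, MEF2C with −0.58 ± 0.14, GADD45B with 0.74 ± 0.22 and MAP3K8 with 0.62 ± 0.17 (adjusted p = 0.0369, 0.0606, 0.0529, 0.0911 and 0.0778). For OF they were GADD45B with 0.93 ± 0.22 and TAOK3 with 0.58 ± 0.15 (adjusted p = 0.0669 and 0.0874). With the GC content correction and the block, MAP3K8 and TAOK3 passed for R and TAOK3 for OF. GADD45B rose in U2932 as given above, and in TMD8 it stood at 105 and 74.0 CPM under isotype, 70.1 and 84.3 CPM with R and 76.6 and 58.3 CPM with OF, where the groups overlapped.

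Beside the members, 63 other genes of the pathway were followed from a list written from general knowledge. In U2932 11 rose and 18 fell with R out of 58 tested, and 13 rose and 15 fell with OF, where 16.8% and 17.4% of all genes rose and fell with R and 18.7% and 17.8% with OF. The phosphatases that switch JNK and p38 off were mostly lower, with 9 of 12 falling and 2 rising with R and 7 falling and 2 rising with OF. DUSP16 and DUSP10, dual-specificity phosphatases that prefer JNK and p38, had log2 fold changes of −1.47 ± 0.22 and −0.62 ± 0.12 with R and −1.39 ± 0.22 and −0.71 ± 0.12 with OF (adjusted p of at most 0.000383, edgeR). DUSP2 rose, at 0.71 ± 0.10 and 0.75 ± 0.11 (adjusted p = 1.21e-05 and 6.29e-06, edgeR).

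JUN, the JNK substrate that gives the kinase its name, stood at 15.3 and 14.3 CPM under isotype, at 3.14 and 4.45 CPM with R and at 5.08 and 3.55 CPM with OF in U2932. Its log2 fold changes were −1.96 ± 0.18 and −1.78 ± 0.18 (adjusted p = 9.16e-09 and 4.55e-08, edgeR), larger than that of any member that passed. JUND fell as well, at −0.62 ± 0.10 and −0.49 ± 0.10 (adjusted p = 2.2e-05 and 0.000339, edgeR). The adaptor MYD88 and the tubulin-binding JNK substrate STMN1 rose, with log2 fold changes with R of 0.83 ± 0.10 and 0.96 ± 0.09 and with OF of 0.78 ± 0.10 and 0.86 ± 0.09 (adjusted p of at most 3.29e-06, edgeR).

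In TMD8 none of the 59 other genes tested passed with R and 1 rose with OF. This was DUSP2, which went from 41.4 and 33.7 CPM under isotype to 100.4 and 93.0 CPM with OF, a log2 fold change of 1.37 ± 0.18 (adjusted p = 0.0851, edgeR). JUN stood there at −0.65 ± 0.17 with R and −0.39 ± 0.17 with OF (adjusted p = 0.165 and 0.373, and 0.022 and 0.109 with the block). With the replicate block 7 of the 59 passed as higher and 11 as lower with R, and 11 as higher and 5 as lower with OF, beside 8.99% and 8.73% of all genes with R and 7.45% and 6.87% with OF. Between R and OF none passed in either line, and with the block 8 passed as lower with R over both lines, beside 3.97% of all genes. In TMD8 R minus OF went with GC content over all genes, at a rank correlation of −0.55. The share of GC content in the values of these other genes was not tested.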

How the data were processed

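Per the labels, total RNA was made into libraries with the NEBNext Ultra II RNA kit. The submitters' processing notes name Trim Galore 0.6.0, cutadapt, FastQC, STAR 2.7.0e, DESeq2 1.26.0 and the build GRCh38. The annotation release and the strand setting are not given in the sources used here. The authors deposited raw counts per gene, with no normalization or filter. 58884 genes were read, of which 27447 had no count, and 0 columns were left out. Names, positions, length and GC content came from GENCODE 29.

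Members and lists were chosen with earlier results of these data known, and any of the 57 members may be named, with full statistics for those that passed within a line, and of the other pathway genes at most 6 a comparison in order of adjusted p. The test was the quasi-likelihood test of edgeR 4.0.16 in R 4.3.3, after TMM and filterByExpr with at least 10 counts. The 6 libraries of a line were fitted with 1 mean per antibody, and all 12 or the 8 anti-CD20 libraries for the comparisons across lines. P-values were adjusted by Benjamini-Hochberg over all genes tested. A gene passed under 0.10, or 0.30 for R versus OF in U2932, with no limit on the fold. The SE is the log2 fold change over the root of the F value. Alternatives were DESeq2 1.42.0, other normalizations and filters, a lowess correction for GC content (span 0.3), the replicate block and left-out libraries. The steps were tested on simulated data with the same spread for all genes, and the fits within a line used U2932 only. This does not show how the fits behave at the replicate spread of TMD8.

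The labels say that each line was kept as separate cultures, so a replicate number marks a culture. Deviations from the condition means correlated at −0.05 to 0.10 between conditions in U2932 and at 0.22, 0.23 and 0.69 in TMD8. Replicates differed by more than counting error, with a chi-square per gene of 2.42 to 106, so none was counted as a repeat. The depth was 15440226 to 27110612 counts per library, and the standard errors printed include the spread between replicates. Figures were drawn with matplotlib 3.10.9.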

Additional observations from a re-analysis of the deposited data

How the results depend on the processing

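Over 173 counts of members under an alternative, 136 were within 1.5 times the value reported. Values of single members were followed only for calls of the main fits, all of which were in U2932. Of these 736 values 619 kept their direction and side of the limit, 117 were no longer past it and 0 turned. TMD8 had no such call, and the sign of MAPK8IP3 with R turned there as given above. In U2932 all 12 libraries in one fit gave 8 members with each antibody, a limit of 1.5-fold gave 4 with R and 6 with OF, and left-out libraries gave 16 to 25 with R and 14 to 30 with OF (14 without OF replicate 1 and 15 without OF replicate 2). In TMD8 the counts with R were 2 with DESeq2, 1 with no filter, 9 with the replicate block, 8 with the block and the GC content correction, 6 with DESeq2 and the block, 7 in the fit of 12 and 0 without any single library. With OF they were 2, 3, 12, 12, 10, 7 and 0 to 1 (1 without isotype replicate 2), and 1 with the GC content correction. Without OF replicate 2 and isotype replicate 2, chosen after seeing the data like DESeq2 with the block, 26 members passed with R, 18 with OF and 5 between R and OF. For both lines no filter gave 5, the block 4 and left-out libraries 0 to 9 (9 without TMD8 OF replicate 1, 2 without its replicate 2). Within a line R against OF stayed at 0 without any single library. The interaction of R gave 3 with DESeq2, 5 with the block, 2 with the block and the GC content correction and 0 to 3 with left-out libraries (3 and 1 without TMD8 isotype replicates 1 and 2), and that of OF gave 2, 2, 1 and 0 to 1 (1 without TMD8 isotype replicate 2), and 1 with no filter. The lines under isotype gave 38 to 44. The replicate block changed no other count by over 1.5 times. The cause was not tested. All genes moved with the setting as well. In TMD8 with R, 0.401% rose and 0.246% fell without the block, and 8.99% and 8.73% with it. With OF these were 0.471% and 0.344%, and 7.45% and 6.87% with the block. For the other settings the share of all genes is not given here, so the member counts are no result about the cascade. With 2 libraries per condition the spread is known poorly, and genes under about 20 counts (MAP3K6, MAPK13 in TMD8, GADD45G in U2932) allow no firm fold.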
